A study of Mus musculus with 4 samples.

Results

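Dense windows are the fixed 100 kb bins of mouse chromosomes 1 to 19 in which the KO and WT peak lists together placed 10 or more peak summits. The windows were selected on the measured summit counts of both lists. There were 904 of them among 22720 bins with a summit. They held 10644 peaks, 5638 from KO and 5006 from WT, of 94517 peaks on these chromosomes. The lists came from chromatin immunoprecipitation sequencing (ChIP-seq) of H3K23pr, which is propionylated lysine 23 of histone H3, in livers of male C57BL/6 mice. The KO liver carried the RPN11 hepatocyte-specific knockout and the WT liver was RPN11 flox/flox, so the WT animals carry the floxed allele without the hepatocyte knockout. RPN11, gene symbol Psmd14, is the deubiquitylating subunit of the proteasome lid. The Cre driver and the age of the animals are not given in the sources used here, and the knockout leaves the other cells of the liver with the gene. The antibody was PTM-208 of PTM Biolabs. Each genotype had 1 immunoprecipitated (IP) library and 1 input library, so no difference below has a replicate check and no p-value is given. In bulk liver, fewer cells with a mark and less of it per cell cannot be told apart.

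Histone propionylation is a short acyl mark on lysine that draws on propionyl-CoA, a product of the breakdown of odd-chain fatty acids and of several amino acids. It has been described at active genes, together with acetylation, and in liver it ties chromatin to metabolism. A peak is a stretch where the IP fragments exceed a local background, and its summit is the base with the most fragments, a number called the pileup. Dense windows are therefore places with many separate peaks, not places with one tall peak.

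The sequences of a few gene starts show what lay under the peaks and what some of the densest windows share. They are promoters of 300 bases from RefSeq (GRCm38.p6), 250 before and 50 after the start, printed 5′ to 3′ on the gene's strand. In dense windows, a member peak overlapped 18 promoters of the table, and 4 of these are shown because their genes belong to families described below or are liver transporters. They were picked after their values were seen. Capitals mark the bases under the peak. Cyp2c68 (chr19:39741052-39741351, minus strand) and Cyp3a59 (chr5:146079008-146079307, plus strand) encode drug- and lipid-metabolising cytochrome P450 enzymes. Slc17a1 (chr13:23870023-23870322, plus strand) encodes a phosphate and organic anion transporter, and Zfp985 (chr4:147553027-147553326, plus strand) is annotated as a zinc finger protein. The first 3 had a KO peak of 4 fragments each and no WT peak, and Zfp985 had a WT peak of 7 fragments and no KO peak.
Cyp2c68: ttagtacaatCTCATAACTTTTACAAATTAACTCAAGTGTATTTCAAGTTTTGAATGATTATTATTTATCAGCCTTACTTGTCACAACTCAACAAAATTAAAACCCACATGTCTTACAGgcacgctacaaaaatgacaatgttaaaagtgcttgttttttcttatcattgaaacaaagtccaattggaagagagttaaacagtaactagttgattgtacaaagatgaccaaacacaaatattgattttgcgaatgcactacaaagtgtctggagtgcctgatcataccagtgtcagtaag
Cyp3a59: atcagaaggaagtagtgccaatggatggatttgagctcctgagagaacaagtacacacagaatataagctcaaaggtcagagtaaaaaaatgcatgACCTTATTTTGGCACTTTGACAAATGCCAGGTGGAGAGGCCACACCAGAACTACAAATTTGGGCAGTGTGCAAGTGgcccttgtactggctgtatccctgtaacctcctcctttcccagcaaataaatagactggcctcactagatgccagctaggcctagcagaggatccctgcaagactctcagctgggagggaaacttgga
Slc17a1: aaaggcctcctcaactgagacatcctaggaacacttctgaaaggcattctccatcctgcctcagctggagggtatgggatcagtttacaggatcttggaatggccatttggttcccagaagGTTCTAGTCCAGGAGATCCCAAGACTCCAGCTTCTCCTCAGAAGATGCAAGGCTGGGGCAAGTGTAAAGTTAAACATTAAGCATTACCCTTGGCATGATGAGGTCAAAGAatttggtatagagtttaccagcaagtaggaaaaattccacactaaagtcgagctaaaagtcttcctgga
Zfp985: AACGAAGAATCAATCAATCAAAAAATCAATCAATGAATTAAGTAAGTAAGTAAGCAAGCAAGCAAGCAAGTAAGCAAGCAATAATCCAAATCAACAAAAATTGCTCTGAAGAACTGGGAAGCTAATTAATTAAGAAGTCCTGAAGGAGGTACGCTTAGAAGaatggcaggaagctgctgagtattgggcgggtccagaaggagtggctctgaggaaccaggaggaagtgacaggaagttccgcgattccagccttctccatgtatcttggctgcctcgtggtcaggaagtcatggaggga

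The second set shows near-identical gene starts in windows that KO peaks filled. Sprr2a1 (chr3:92215585-92215884, plus strand) and Sprr2a3 (chr3:92285054-92285353, plus strand) encode small proline-rich proteins of epithelial barriers. A530032D15Rik (chr1:85109804-85110103, minus strand) and C130026I21Rik (chr1:85270517-85270816, minus strand) lie beside the Sp100 family of nuclear body genes. Capitals mark the longest stretch that the 2 promoters of a pair share without a gap, 272 bases for the Sprr2a pair and 255 bases for the chromosome 1 pair. A fragment from such a stretch can be placed at either copy. No member peak overlapped these promoters, and the rest of the genes was not compared. Whether counts at these genes are uncertain for the single gene was thus not tested.
Sprr2a1: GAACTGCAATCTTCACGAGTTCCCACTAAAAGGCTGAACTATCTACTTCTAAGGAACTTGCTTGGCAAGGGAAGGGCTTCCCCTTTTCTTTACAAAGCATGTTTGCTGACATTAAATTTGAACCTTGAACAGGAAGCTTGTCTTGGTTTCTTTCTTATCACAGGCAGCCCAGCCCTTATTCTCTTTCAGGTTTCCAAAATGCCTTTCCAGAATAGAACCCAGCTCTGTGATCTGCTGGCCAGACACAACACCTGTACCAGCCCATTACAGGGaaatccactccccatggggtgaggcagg
Sprr2a3: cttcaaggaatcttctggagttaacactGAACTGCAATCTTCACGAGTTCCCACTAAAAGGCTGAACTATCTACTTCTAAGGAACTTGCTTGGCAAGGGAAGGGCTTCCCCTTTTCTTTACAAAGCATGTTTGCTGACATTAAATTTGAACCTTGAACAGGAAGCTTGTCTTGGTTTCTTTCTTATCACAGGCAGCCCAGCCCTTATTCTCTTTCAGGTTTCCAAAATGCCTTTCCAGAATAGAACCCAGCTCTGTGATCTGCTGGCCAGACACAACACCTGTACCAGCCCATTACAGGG
A530032D15Rik: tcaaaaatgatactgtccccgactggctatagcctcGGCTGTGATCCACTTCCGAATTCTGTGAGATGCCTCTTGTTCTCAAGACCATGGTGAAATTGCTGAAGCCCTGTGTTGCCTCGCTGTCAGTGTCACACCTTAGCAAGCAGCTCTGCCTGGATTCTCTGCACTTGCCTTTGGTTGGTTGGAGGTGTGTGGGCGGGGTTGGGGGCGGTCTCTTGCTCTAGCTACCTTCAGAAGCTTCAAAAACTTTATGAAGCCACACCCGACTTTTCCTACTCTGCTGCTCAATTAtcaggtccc
C130026I21Rik: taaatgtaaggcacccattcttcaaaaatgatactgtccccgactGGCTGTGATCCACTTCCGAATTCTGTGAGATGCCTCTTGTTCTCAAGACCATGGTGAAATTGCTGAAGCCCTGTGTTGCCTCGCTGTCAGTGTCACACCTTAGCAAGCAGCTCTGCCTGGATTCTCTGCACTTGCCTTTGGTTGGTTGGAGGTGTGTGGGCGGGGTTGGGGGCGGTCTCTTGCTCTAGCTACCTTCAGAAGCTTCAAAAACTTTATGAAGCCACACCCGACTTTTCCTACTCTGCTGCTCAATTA

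Dense windows were 3.67% of the 24617 windows up to the last summit of each chromosome, and they held 11.3% of the peaks. The share of a list's peaks that lay in them was 13.7% for KO and 9.38% for WT. The rule used the sum of both counts, so these totals are a description. At the threshold, 344 windows had exactly 10 summits and 568 had 9. KO peaks made up 49.7% of the peaks in windows with 10 summits and 48.4% in windows with 9, so the split was nearly the same on both sides of it.

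All windows of these chromosomes had a mean of 3.84 summits and a variance of 7.64. By list, the mean was 1.67 with a variance of 3.15 in KO and 2.17 with a variance of 2.89 in WT. The KO list was thus the shorter but the more unevenly spread. Across the 24617 windows the KO and WT counts had a Spearman rank correlation of 0.26, a description across windows that share the same 2 libraries, mappability and base composition. The mean count of a dense window's neighbours had a median of 6.5, against 3.5 for windows with 1 to 9 summits.

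Dense windows held KO and WT peaks in nearly equal numbers, while the rest of the genome held more WT peaks. KO peaks were 53.0% of the peaks in dense windows (exact 95% interval 52.0 to 53.9) and 42.3% of those in windows with 1 to 9 summits (42.0 to 42.6). These intervals are Clopper-Pearson and cover counting error only. The median dense window held 6 KO and 6 WT summits. KO counts reached 38 in a window and WT counts reached 14. KO had more summits than WT in 438 dense windows, WT had more in 341, and 125 held equal numbers. Both lists gave 5 or more summits in 409 of the 904. Of the 344 windows with exactly 10 summits, only the 78 with equal numbers could meet this. The count thus depends on the minimum and does not measure a lean to one list.

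**Figure D1:**
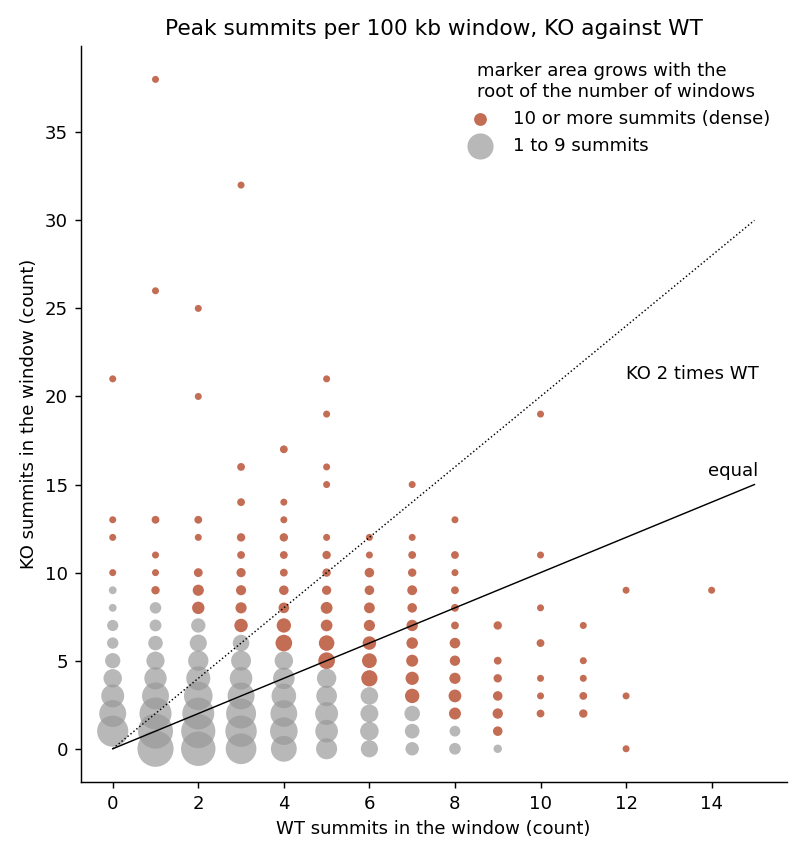
KO summits (vertical axis, count) against WT summits (horizontal axis, count) in each 100 kb window, with dense windows in red and windows with 1 to 9 summits in grey. KO counts run to 38 along the left edge, where WT has few summits, while no window has more than 14 WT summits.

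KO had at least 2 times as many summits as WT in 162 dense windows (17.9%), and WT had at least 2 times as many in 133 (14.7%). With a minimum of 8 summits the order turned round, with 400 KO-rich and 469 WT-rich windows. With a minimum of 12 there were 80 KO-rich and 35 WT-rich windows, and counting peaks of 5 or more fragments gave 62 KO-rich and 23 WT-rich. Windows ruled by equal numbers of each list's strongest peaks, a setting chosen after seeing the data, gave 190 KO-rich and 51 WT-rich. Member peaks at a q of 0.05 or smaller gave 581 KO-rich and 97 WT-rich. That filter kept 1996 KO and 644 WT members, and it also kept more KO than WT peaks outside dense windows, 9280 against 4488. A window left with only KO peaks counts as KO-rich there, however few they are. The balance thus depends on the minimum and on which peaks are counted. Among all windows with a summit the same calls were made in 23.1% for KO and 45.2% for WT, where most counts are small. Among windows with 7 to 9 summits they were made in 16.9% for KO and 28.1% for WT. The share of KO-rich dense windows was thus near that of the next class down, and the share of WT-rich ones was lower.

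The KO share was higher in each denser class. It was 38.3% in windows with 1 to 3 summits, 42.4% with 4 to 6 and 46.4% with 7 to 9. Among dense windows it was 50.2% with 10 to 12 summits (exact 95% interval 49.0 to 51.3), 54.6% with 13 to 15 (52.4 to 56.7) and 66.5% with 16 or more (63.8 to 69.1). The densest class had 67 windows with 840 KO and 424 WT peaks. Without runs of 7 or more neighbouring dense windows, the KO share over all dense windows was 51.9%.

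**Figure D2:**
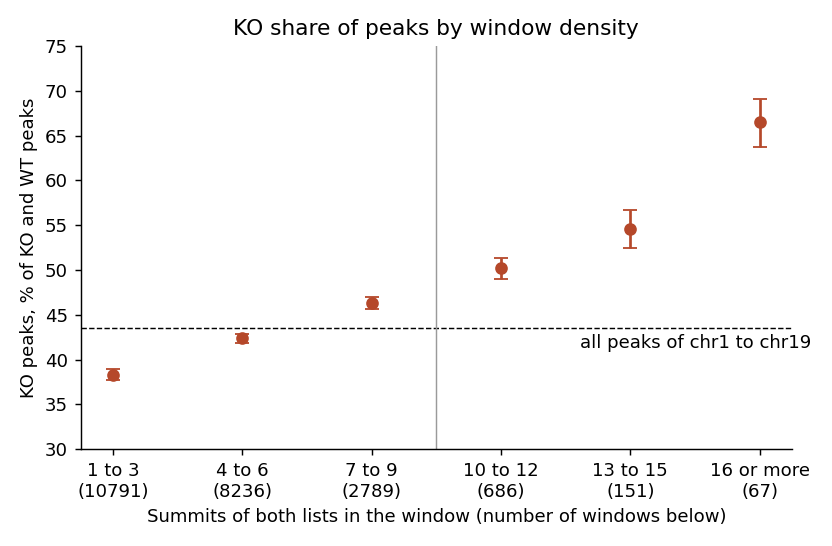
KO peaks as a percentage of KO and WT peaks (vertical axis) in classes of windows by their summits of both lists (horizontal axis), with exact 95% binomial intervals as bars. The share goes from 38.3% in the sparsest class to 66.5% in the densest, and the classes right of the grey line are the dense windows.

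Dense windows were made of weak peaks, like the rest of both lists. The median pileup was 5 fragments in KO and 5 in WT members, and also 5 in the other peaks of each list. The lowest value was 4 in every set. Peaks of 8 or more fragments were 6.31% of KO members (exact 95% interval 5.69 to 6.98) against 3.00% of other KO peaks. They were 6.99% of WT members (6.30 to 7.73) against 4.02% of other WT peaks. Peaks of only 4 fragments were 34.4% of KO members against 43.6% of other KO peaks, and 30.7% of WT members against 37.8% of other WT peaks. Members thus leaned slightly to taller peaks in both lists. The authors' fold over background had a median of 3.83 in KO members and 3.55 in WT members. Median peak width was 95 bp in KO members and 133 bp in WT members, while fragments averaged 71 bp in KO and 97 bp in WT.

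The authors' q was 0.05 or smaller for 35.4% of KO members and 12.9% of WT members, against 27.4% of the whole KO list and 9.61% of the whole WT list. The KO IP had 15468265 fragments after filtering and the WT IP had 13615838. The genome-wide background of the caller was 0.568 fragments in KO and 0.692 in WT. A background of more than 2 times that level lay under 1.99% of KO members and 6.55% of WT members, against 0.947% of other KO peaks and 4.02% of other WT peaks. The part of depth, fragment size and background in the counts was not tested.

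Sharing a window did not mean sharing a peak. Of KO members, 112 (1.99%) overlapped a WT peak by at least 1 bp, and of WT members, 113 (2.26%) overlapped a KO peak. The same overlap was found for 1.08% of the whole KO list and 0.837% of the whole WT list. An overlapping pair lay in 99 of the 904 windows. Among members of 4 fragments, 1.44% in KO and 1.63% in WT overlapped, against 0.608% of other KO and 0.551% of other WT peaks of that height. Members by the rule also had more peaks of both lists around them, and the part of this in the overlap was not tested. Among peaks of 11 or more fragments the member shares were the lower ones in both lists, at 11.4% of 70 KO members and 38.2% of 55 WT members, against 32.8% of other KO peaks and 41.8% of other WT peaks.

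The tallest members came from a few places. Of the 5 tallest in KO, 3 lay at chr9:124256384-124257834 with 106, 65 and 65 fragments over backgrounds of 24.7 to 48.7, so that the fold was between 2.12 and 2.56. The other two lay in D5Ertd579e on chromosome 5, a gene named only by its mapping, with 76 and 64 fragments and folds of 49.1 and 36.7. Both of those overlapped a WT peak. In WT all 5 lay in the first 100 kb of assembled sequence of chromosome 9, with 856 to 3551 fragments at folds of 1.10 to 2.89. That window held 0 KO and 12 WT summits, the WT pileups had a median of 822.5, and the background reached 1702 fragments. It is the one dense window without any KO peak.

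Both repeated gene clusters and a single long gene made up the longest runs of neighbouring dense windows. Of all runs, 617 were single windows, 83 had 2 windows, 22 had 3, 7 had 4, 1 had 5, 2 had 7 and 1 had 8. The run of 8 and one of the runs of 7 were filled mainly by KO peaks, and the other run of 7 was shared between the lists.

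The run at chr1:85000001-85700000 holds Sp110, Sp140 and Sp100, interferon-inducible genes of nuclear body proteins, among predicted genes. It had 157 KO and 14 WT summits, or 91.8% KO. Window by window there were 32, 26, 25, 7, 13, 16 and 38 KO summits against 3, 1, 2, 4, 0, 3 and 1 WT summits, so KO was higher in all 7. KO pileups were 4 to 20 with a median of 8, and WT pileups were 7 to 17 with a median of 11.5. The few WT peaks there were thus not lower in pileup than the KO ones. Their fold was lower, with a median of 3.54 against 4.46 in KO. The background had a median of 1.02 fragments in KO and 2.18 in WT peaks, each above its genome-wide level. Sp140 alone held 35 KO and 0 WT summits, the predicted gene Gm38510 held 46 KO and 3 WT, and Gm7592 held 30 KO and 5 WT.

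The run at chr8:19900001-20700000 holds only predicted or unnamed genes, among them Gm15319 and Gm21119, whose promoters are the same over all 300 bases. It had 119 KO and 22 WT summits, or 84.4% KO. The windows had 11, 13, 16, 20, 13, 17, 21 and 8 KO summits against 3, 1, 3, 2, 1, 4, 5 and 3 WT summits, so KO was higher in all 8. Pileups were 4 to 12 in KO and 4 to 14 in WT, and the median background was 0.637 in KO and 2.04 in WT peaks. These runs together held 36.2% of the KO members of 8 or more fragments (129 of 356) and 8.57% of the WT ones (30 of 350).

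In all but its first window, the run at chr3:118400001-119100000 lies over Dpyd, which encodes dihydropyrimidine dehydrogenase, the first enzyme of uracil and thymine breakdown. It had 48 KO and 39 WT summits. The windows had 5, 7, 9, 5, 6, 7 and 9 KO summits against 6, 7, 3, 5, 10, 4 and 4 WT summits, so the lists took turns along the run. Pileups were 4 to 8 in both lists and the background stayed at 0.568 in KO and 0.692 in WT at the median.

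**Figure D3:**
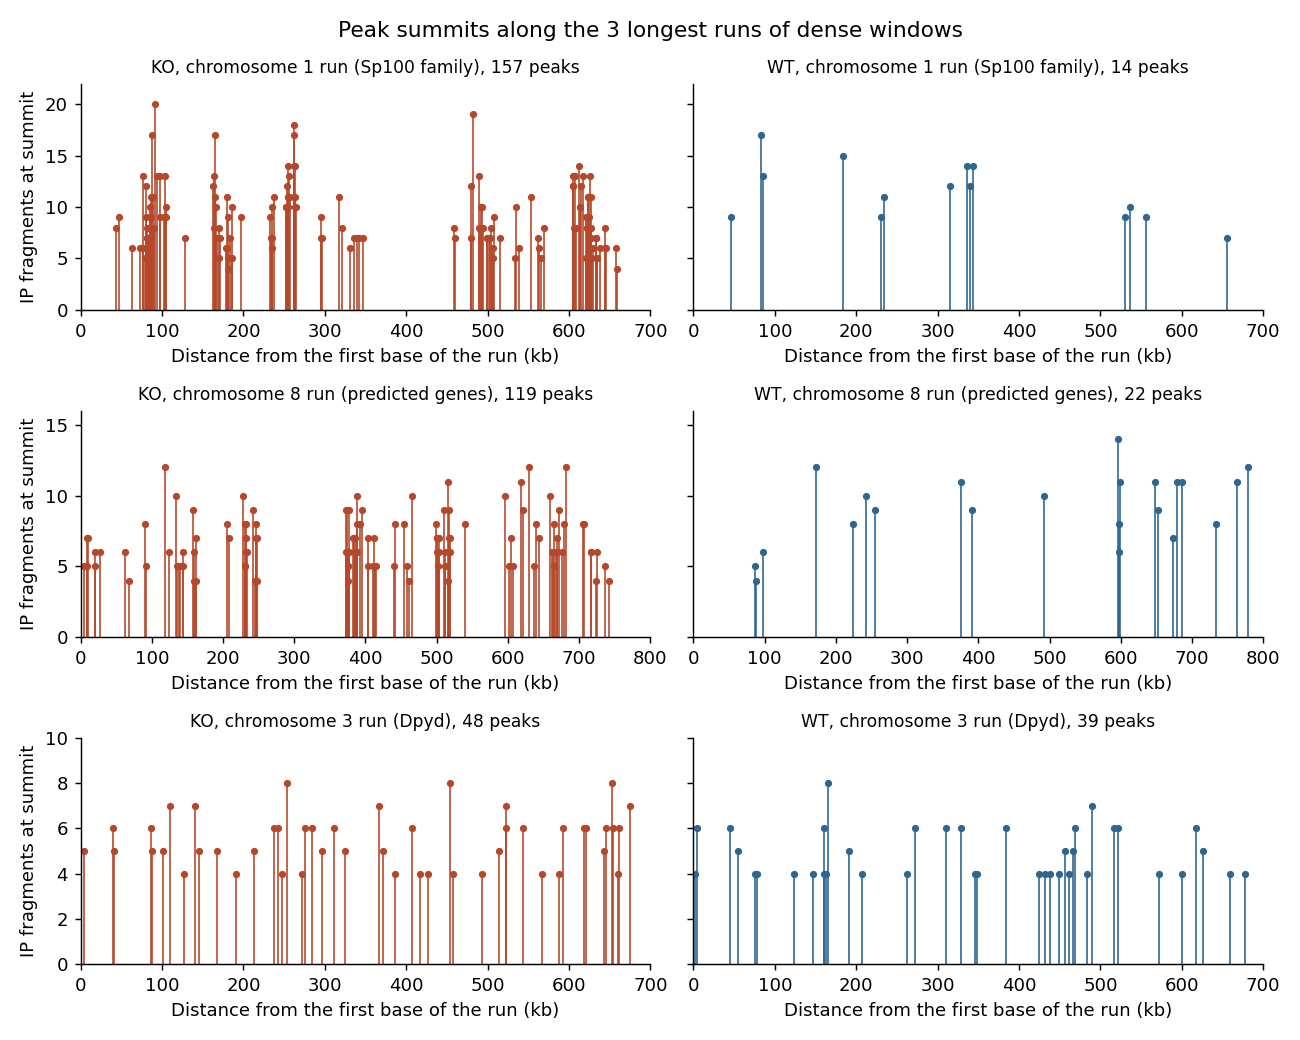
IP fragments at each member summit (vertical axis) by distance from the first base of the run in kb (horizontal axis), KO left and WT right, for the runs of 7, 8 and 7 windows. KO peaks crowd in clumps of up to 20 fragments in the upper panels, where WT has 14 and 22 peaks, while both lists spread evenly at 4 to 8 fragments over Dpyd.

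The runs of 4 and 5 windows lay over both single genes and gene clusters. The run of 5 windows, over the insulin signalling adaptor Grb14, Cobll1 and the amino acid transporter Slc38a11, held 40 KO and 18 WT summits. Among the runs of 4, the one over Vcl (vinculin, a cell adhesion protein), Ap3m1 and Adk held 52 KO and 23 WT. The one that starts in Cyp7b1, an oxysterol hydroxylase of bile acid synthesis, held 27 KO and 21 WT. Of these, 14 KO and 7 WT lay inside the gene. The one beside Aadac, a microsomal lipid deacetylase, held 24 KO and 23 WT. The one that holds Cox18 and Ankrd17 and then Alb, Afp and Afm, which encode albumin and its relatives in plasma, had 34 KO and 23 WT summits. The 4 windows there had 6, 6, 15 and 7 KO against 5, 7, 7 and 4 WT. Alb lies in the window with 15 KO and 7 WT, and the windows before it hold none of the albumin genes. KO had more summits in every one of these runs, by as little as 1 summit beside Aadac.

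Outside the longest runs, several of the densest windows held more KO than WT summits. The Zfp982 window on chromosome 4, in a cluster of zinc finger genes, held 19 KO and 10 WT summits. The window of Chil4, a chitinase-like protein, held 19 KO and 5 WT. The Sprr2a window held 21 KO and 0 WT, with KO pileups of 4 to 11. The window of Mcee, an enzyme on the path from propionyl-CoA to succinyl-CoA, held 17 KO and 4 WT, but no summit lay inside the Mcee gene itself. Albumin's window had 15 KO and 7 WT, of which 0 KO and 2 WT lay inside Alb. The counts of these windows are thus mostly those of flanking sequence. Adk, adenosine kinase, took more of its own, and its windows with 21 summits each held 16 KO and 5 WT, and 13 KO and 8 WT. The only one of the 15 densest windows with more WT summits was that of Erbin, a scaffold protein of cell junctions, with 9 KO and 14 WT.

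The windows with the largest WT excess, apart from the chromosome 9 window above, lay on chromosomes 1, 3, 6 and 10 and held 2 or 3 KO summits each. That of S1pr1, a sphingosine-1-phosphate receptor, had 3 KO and 12 WT summits, none inside the gene. Windows of Ppp1r12a (a myosin phosphatase subunit), Arhgef11 and Pdlim5 (an actin-associated protein) each held 2 KO and 11 WT. In Pdlim5 all of these lay inside the gene, and in Arhgef11 2 KO and 10 WT did. Windows of Rapgef2, a Rap exchange factor, and of Sgo2a with Aox1 each held 3 KO and 11 WT. Aox1, an aldehyde oxidase abundant in liver, took 2 KO and 9 WT of them. The window of Slc25a13, a mitochondrial aspartate and glutamate carrier of the urea cycle, held 2 KO and 10 WT. Of these, 0 KO and 2 WT lay inside the gene. The whole genes held 8 KO and 3 WT in Slc25a13, and 17 KO and 18 WT in Rapgef2. WT was further ahead in the whole of Ppp1r12a (3 KO, 13 WT), Arhgef11 (2 KO, 11 WT) and Pdlim5 (5 KO, 14 WT). The same held for Aox1 (2 KO, 9 WT) and Sgo2a (1 KO, 3 WT). WT pileups in these 7 windows were 4 to 10, so none rested on a tall peak. The median background of their WT peaks was 0.692 to 0.725 fragments, but in the S1pr1, Arhgef11, Sgo2a with Aox1, and Slc25a13 windows it reached 1.45, more than 2 times the genome-wide level, and the part of this in the counts was not tested.

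Dense windows were richer in gene sequence than the rest. No protein-coding gene lay in 17.0% of them (exact 95% interval 14.6 to 19.6), against 35.9% of windows with 1 to 9 summits. Genes covered a median of 66.3% of a dense window against 30.6%, while the median number of genes was 1 in both. A gene of 200 kb or longer touched 26.3% of dense windows (23.5 to 29.3) against 20.3%, and 5 or more genes lay in 1.99% against 4.11%. Compared with windows of 1 to 9 summits, dense windows were thus covered by few long genes more than by many short ones. Windows with 7 to 9 summits showed part of this. No gene lay in 28.6% of them, and the median cover was 45.9%. A gene of 200 kb or longer touched 21.7%, and 5 or more genes lay in 2.15%.

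Of KO members, 59.9% had their summit inside a protein-coding gene (exact 95% interval 58.6 to 61.2), against 41.4% of other KO peaks. For WT it was 58.4% of members (57.1 to 59.8) against 42.4% of others. Summits inside long noncoding RNA genes were 7.95% of KO members and 8.39% of WT members, against 8.84% of other KO and 8.96% of other WT peaks. The gene-body share was thus higher in both lists by a like amount. Near gene starts the lists differed. Within 1 kb of a start lay 1.54% of KO members, against 1.23% of other KO peaks. For WT it was 59 of 4937 members (exact 95% interval 0.911% to 1.54%), against 1.94% of other WT peaks. Within 2 kb it was 3.94% of KO members (3.45 to 4.49) against 3.01% of other KO peaks. For WT it was 3.63% of members (3.12 to 4.19) against 4.15% of other WT peaks. KO members thus lay near a start slightly more often than other KO peaks, and WT members did not. The table of starts has no chromosome 18, and its peaks are left out of these shares.

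Of 20661 protein-coding genes on these chromosomes, 1141 (5.52%) touched a dense window, with a median length of 45.7 kb against 16.6 kb for the others. The share went with gene length. It was 2.62% of genes under 10 kb, 3.82% from 10 to 30 kb, 7.76% from 30 to 100 kb, 13.0% from 100 to 300 kb and 19.5% above 300 kb. A longer gene crosses more windows, so these shares are a description. Whether long genes were preferred beyond this was not tested.

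The 20 genes with the most member summits were mainly long ones. Dpyd led with 38 KO and 29 WT, in 6 dense windows of the 10 it crosses. Ptprd, a receptor-type tyrosine phosphatase gene of 2270.5 kb, had 37 KO and 14 WT in 4 dense windows of the 24 it crosses. Over the whole gene it had 77 KO and 45 WT. Ptprk of the same family had 21 KO and 13 WT in dense windows, and 27 KO and 22 WT over the whole gene. Adk, 396.0 kb long, had 38 KO and 12 WT in its dense windows. Over the whole gene it had 44 KO and 15 WT, which is 11.1 KO and 3.79 WT summits per 100 kb. Over its whole length, Dpyd had 4.94 KO and 4.36 WT summits per 100 kb, so Adk was KO-rich where Dpyd was nearly even. Sp140 had the highest KO density of the 20, 60.8 summits per 100 kb.

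The others span several roles. Their counts are of summits in dense windows, which were selected by count, unless the whole gene is named. Among regulators of transcription, Zbtb20, a zinc finger repressor of Afp in liver, had 22 KO and 24 WT, Foxp2, a forkhead factor, 14 KO and 17 WT, and Mbd5, a methyl-CpG-binding domain protein, 24 KO and 15 WT. These did not lean one way. Of the genes for transport and membranes, Slc4a4, a sodium bicarbonate cotransporter, had 16 KO and 22 WT, Syt1, a calcium sensor of vesicle release, 18 KO and 17 WT, and Dennd1a, an exchange factor of endocytosis, 18 KO and 15 WT. B3galt1, a galactosyltransferase, had 19 KO and 17 WT. Of the genes for adhesion, polarity and signalling, Lpp had 23 KO and 19 WT, and Pard3 18 KO and 11 WT. Psd3 had 14 KO and 16 WT, Rapgef2 13 KO and 16 WT, and Akap13 14 KO and 11 WT. Over the whole gene, Lpp had 34 KO and 23 WT, Pard3 28 KO and 28 WT, and Psd3 23 KO and 24 WT. The whole of Rapgef2 had 17 KO and 18 WT, and the whole of Akap13 18 KO and 13 WT. Ascc3, a helicase, had 15 KO and 16 WT. Apart from the predicted genes and Sp140, the pileups of the member summits in these genes were 4 to 10 in both lists.

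**Figure D4:**
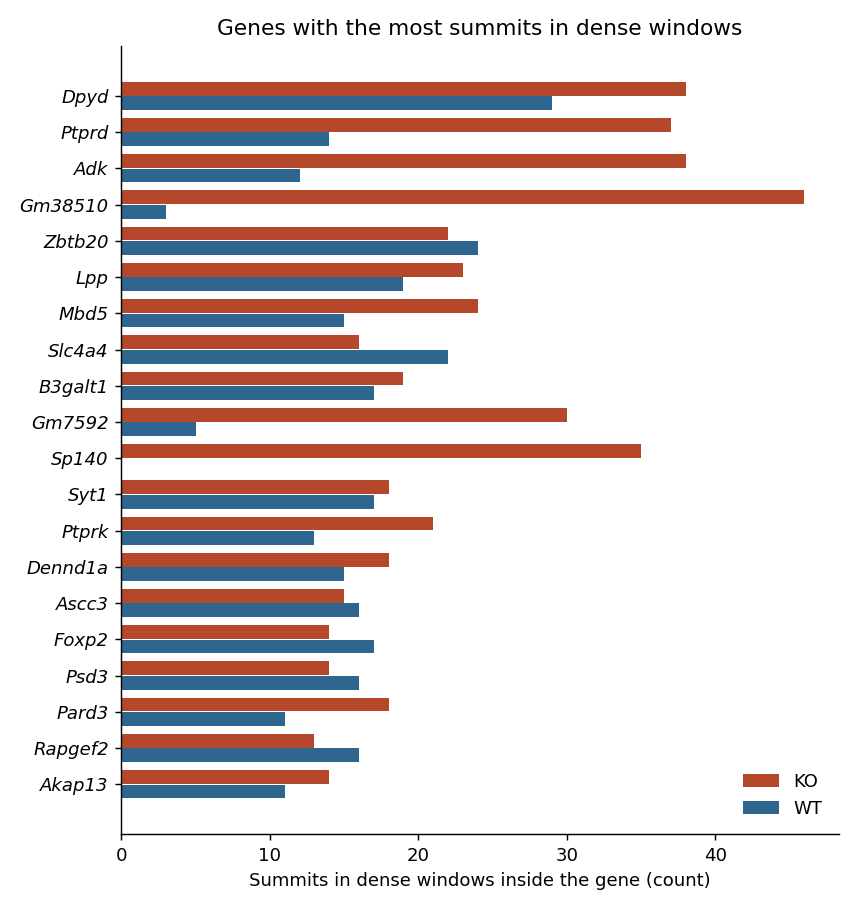
Summits in dense windows inside each of the 20 genes with the most (horizontal axis, count), KO above and WT below for each gene. Bars of KO and WT are of like length for Zbtb20, Syt1 and Ascc3, while Gm38510, Gm7592 and Sp140 have few or no WT summits.

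Several gene families had more of their genes in dense windows, as a share, than the 5.52% of all genes, and the difference was not tested. The lists were chosen with earlier results of these data known, and neighbouring members of a family share windows. Of UDP-glucuronosyltransferases, which conjugate bilirubin, steroids and drugs, 19 of 22 touched a dense window. They lay in 9 windows on 3 chromosomes with 70 KO and 50 WT summits. The window of Ugt2b35 and Ugt2b36 held 15 KO and 5 WT, and Ugt2b36 itself 7 KO and 2 WT. The Ugt1a genes overlap one another, so a summit there counts for several of them. One Ugt1a window held 6 KO and 7 WT and the other 10 KO and 3 WT.

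Of major urinary proteins, secreted by the liver as carriers of pheromones, 12 of 22 touched a dense window. Their 9 windows held 73 KO and 36 WT summits, or 67.0% KO, against 53.0% over all dense windows. The single windows held 6 to 10 KO against 2 to 7 WT, so the ranges overlapped, but KO was higher in all 9. Mup20 had 6 KO and 0 WT summits and Mup5 had 4 KO and 1 WT. The longest stretch shared by a pair of Mup promoters had a median of 66 bases and a maximum of 168. No member peak overlapped a Mup promoter, and the rest of the genes was not compared. Whether these counts too are uncertain for the single gene was thus not tested.

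Cytochrome P450 genes lay there in 20 of 101 cases, with 89 KO and 87 WT summits in 14 windows, an even split. The windows were not even one by one. That of Cyp2c40 and Cyp2c69 held 11 KO and 8 WT, and that of Cyp2c68 and Cyp2c40 held 11 KO and 5 WT. That of Cyp2c39 and Cyp2c38 held 4 KO and 9 WT, and that of Cyp4a12a and Cyp4a29 held 4 KO and 8 WT. Histone genes touched dense windows in 27 of 80 cases, but these were 2 windows of the chromosome 13 cluster with 9 KO and 12 WT summits, and 1 gene, H2bc6, had a summit.

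Of 20 hepatocyte markers, 5 touched a dense window (25%, against 5.52% of all genes). KO had more summits in each of these windows, as it did in 438 of all 904 dense windows. The window of Cps1, the first enzyme of the urea cycle, held 13 KO and 2 WT, with 8 KO and 1 WT inside the gene. That of Tdo2, which opens the tryptophan ring, held 9 KO and 6 WT, and that of Nr1h4, the bile acid receptor FXR, held 9 KO and 2 WT. Cyp2e1, an ethanol-oxidising P450, had 6 KO and 5 WT, and albumin's window is given above. These windows together held 52 KO and 22 WT summits, of which 17 KO and 6 WT lay inside the markers. Besides Cps1, there were 4 KO and 1 WT in Tdo2, 4 KO and 2 WT in Nr1h4, and 1 KO and 0 WT in Cyp2e1. Alb had 0 KO and 2 WT, so much of the count is that of flanking sequence.

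Markers of other liver cells gave small counts, read against the 5.52% of all genes. None of 9 Kupffer cell, 10 endothelial and 10 cholangiocyte markers touched a dense window. One of 10 stellate cell markers (Reln, window with 6 KO and 6 WT) and 1 of 10 lymphocyte markers (Ptprc, window with 6 KO and 4 WT) did. Peaks of a histone mark do not measure expression, so these lists do not show which cells gave the fragments.

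The other families lay on both sides of the 5.52% of all genes. Receptor-type tyrosine phosphatases (Ptpr) touched a dense window in 3 of 21 cases, with 64 KO and 31 WT summits in their windows. Small lists above that share were Dlg (2 of 9), Speer (2 of 10), Ly6 (2 of 21) and Pramel (4 of 45), so each rests on a few genes. Of solute carriers 29 of 376 touched a dense window, with 176 KO and 167 WT summits in their windows, and of zinc finger proteins 14 of 418 did, with 91 KO and 45 WT. Olfactory receptor genes did so in 19 of 1104 cases, and only Olfr1393 among them had a summit. Sulfotransferases (0 of 21), defensins (0 of 72), keratins (0 of 53) and protocadherins (0 of 67) had none.

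**Figure D5:**
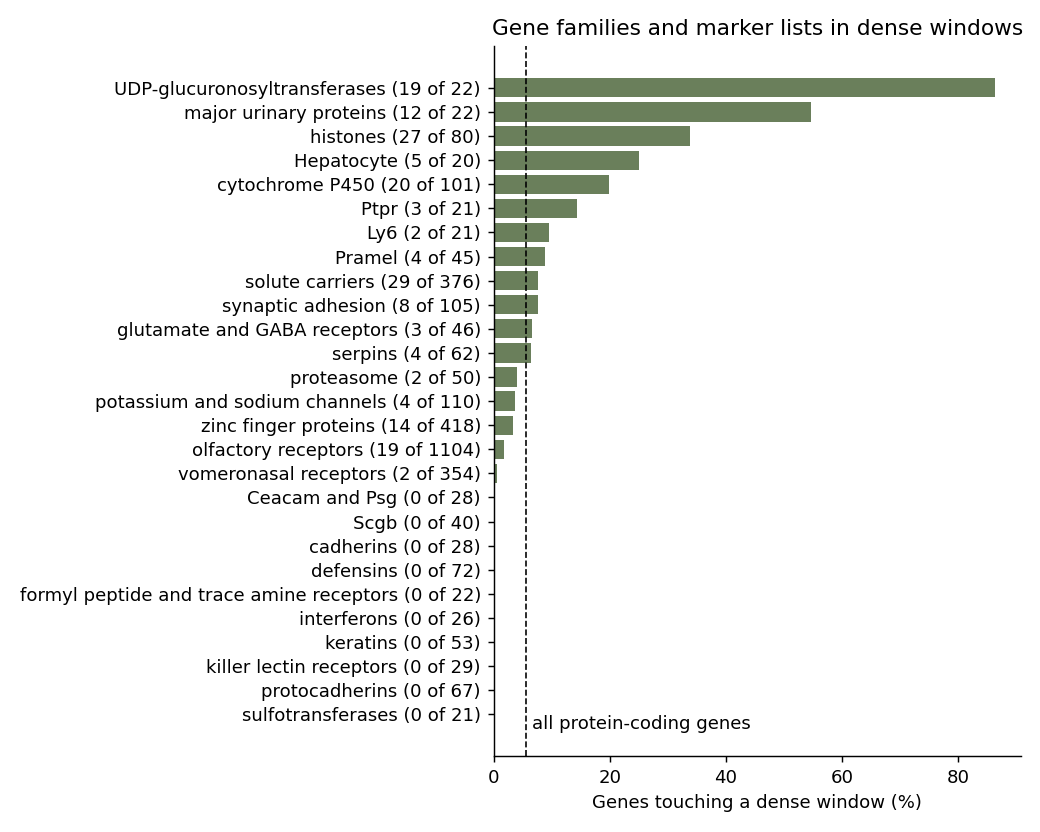
Share of the genes of each list that touch a dense window (horizontal axis, percent), for lists of 20 or more genes, with the number of genes in parentheses and a dashed line at the 5.52% of all protein-coding genes. UDP-glucuronosyltransferases stand highest with 19 of 22, and 10 lists at the foot have none.

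Of 50 proteasome genes, Psmd14 and Psmc2 touched a dense window. Psmd14, the gene targeted in the knockout, had 10 KO and 6 WT summits of 4 to 7 and 4 to 6 fragments, and its window held 10 KO and 8 WT. Peaks in a gene body do not check the deletion. Acss3, an acyl-CoA synthetase of short-chain fatty acids such as propionate, had 12 KO and 8 WT summits in dense windows, which were 2 of the 3 it crosses. Mettl3, the m6A RNA methyltransferase, lay in none and had no summit of either list inside it.

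Windows with repeated gene starts were KO-rich. A promoter that shares 100 or more bases in a row with a promoter elsewhere was 4.58% of those starting in dense windows (56 of 1223, exact 95% interval 3.48 to 5.91) and 3.55% of the rest (1072 of 30173). The 32 dense windows with such a promoter held 327 KO and 118 WT peaks, or 73.5% KO (69.1 to 77.5). In the 512 other dense windows with a promoter, KO peaks were 52.0% (50.7 to 53.3). Outside the chromosome 1 and chromosome 8 runs, 27 windows with such a promoter still held 217 KO and 110 WT peaks, or 66.4% KO (61.0 to 71.5). KO had at least 2 times as many peaks as WT in 16 of the 32 windows, and in 11 of the 27. Among the 512 others it did so in 87 (17.0%). Whether fragments placed at several copies had a part in this was not tested.

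Promoters starting in dense windows were otherwise like the rest. Their GC content had a median of 50.3% against 53.0%, and the motif TATAAA, searched on both strands, lay in 15.4% against 13.5%. The 18 promoters overlapped by a member peak, such as those printed above, had a median GC content of 42.8%.

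Dense windows were spread over all 19 chromosomes but not evenly. They were 6.48% of the windows of chromosome 2, 5.75% of chromosome 3 and 5.42% of chromosome 1, against 1.37% of chromosome 17 and 1.32% of chromosome 18. The KO share of their peaks was highest on chromosome 8, with 61.9%, and on chromosome 1, with 56.1%, which hold the KO-rich runs. It was lowest on chromosome 18, with 46.1%, and chromosome 17, with 46.8%.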

How the data were processed

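H3K23pr ChIP-seq was done on liver, with 1 IP and 1 input library per genotype, grouped by title and genotype label. The submitters' processing notes name cutadapt 1.9.3, Bowtie2 2.2.4 and the build mm10. Per the file headers, MACS 2.1.1.20160309 called peaks per library, each IP against its own input, at a p cutoff of 0.001. The deposited pileup is a signal, the IP fragments over the summit. The deposited fold is a ratio of pileup to local background with a pseudocount of 1, and the p and q values were deposited by the authors as −log10 values. They describe and filter peaks within a list. The background of a peak was worked back from its pileup and fold.

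Summits were counted in 100 kb windows from base 1 of chromosomes 1 to 19. Genes were matched by position to RefSeq's gene table for GRCm38.p6, which has the coordinates of mm10. The table has no exons, so exons and introns were not told apart, and no genome sequence was used. With 1 library per genotype there is no test. Counting error is given as exact 95% binomial intervals. The named windows are the 15 with the most summits and the 8 with the largest difference each way, and the named genes are those in them, the 20 with the most member summits, those at the 5 tallest members of each list, and 3 genes looked up. The members and lists were chosen with earlier results of these data known. Scripts were tested on simulated peaks and run with Python 3.11.15, pandas 2.3.3, numpy 2.4.6 and scipy 1.17.1.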

Additional observations from a re-analysis of the deposited data

How the results depend on the processing

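Of 106 values recomputed under alternatives, 61 counted as the same and 45 as moved. A share counted as the same inside the exact interval of the main value, and a number of windows within 1.5 times of it. A median pileup counted as the same only when equal. Only the KO share could cross to the other side of an even split, and it did so under none of the alternatives. The other values have no sign to change. With a minimum of 8 summits there were 2332 windows, a KO share of 50.1%, 400 KO-rich and 469 WT-rich windows by 2 times, 55.7% of KO and 53.5% of WT members in genes, and 1.80% of WT members overlapping, so that WT-rich windows outnumbered KO-rich ones there. With a minimum of 12 the same values were 329, 56.7%, 80, 35, 63.2%, 63.2% and 2.82%. Counting only peaks of 5 or more fragments left 190 windows, a KO share of 60.1%, 62 KO-rich and 23 WT-rich windows, median pileups of 6 in KO and 6 in WT, overlaps of 2.66% in KO and 4.00% in WT, and 62.7% of KO and 62.0% of WT members in genes. Among members at a q of 0.05 or smaller the KO share was 75.6% and 581 windows were KO-rich. The filter kept 9280 KO and 4488 WT peaks outside dense windows, so it leaned to KO there too. Among these members the median pileup was 6 in KO and 7 in WT. Overlaps were 2.61% in KO and 4.66% in WT, and 62.1% of KO members lay in genes.

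Without the 260 windows holding a peak at high background, WT-rich windows numbered 87 and the overlaps were 1.40% in KO and 1.58% in WT. Asking for an overlap of 50% of the shorter peak gave 1.26% in KO and 1.46% in WT, and summits within 50 bp gave 0.834% in KO and 0.939% in WT. With equal numbers of the strongest peaks per list in the same windows, the KO share was 58.6%, against 48.9% outside them. Requiring 5 or more summits of each list left 409 windows.

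Chosen after seeing the data, leaving out runs of 7 or more windows gave a KO share of 51.9% and leaving out runs of 4 or more gave 51.3%. Windows ruled by equal numbers of the strongest peaks, also chosen after seeing the data, numbered 581, with a KO share of 59.8% and 51 WT-rich windows. The cause of these shifts was not tested, apart from those that a different minimum or a smaller set of peaks fixes by construction. No paired analysis was possible because each genotype has 1 IP library, and for the same reason no replicate could be left out. A pileup of 4 to 7 fragments, as most members have, limits any statement on a single peak.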
